A study of Homo sapiens with 6 samples.

Results

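Metallothioneins are small, cysteine-rich proteins that bind zinc and copper, buffer free zinc in the cytosol and scavenge oxidants. Their transcription is switched on by MTF1, a zinc finger factor that senses zinc and binds short metal response elements (MREs) in promoters, and the same factor drives SLC30A1 (ZnT1), the exporter that carries zinc out across the plasma membrane. In heart muscle, metallothioneins are known for protection against oxidative injury, including that caused by doxorubicin, and they also respond to glucocorticoids and to cytokines. The genes described are MT2A, MT1E, MT1X, MT1F, MT1M, MT1G, MTF1 and SLC30A1. They were taken by symbol, and all 8 were found among the 58884 genes of the expression table.

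RNA-seq was performed on cells labelled T0519, a line of immortalized human cardiomyocytes, to ask which transcripts respond to loss of CIRBP, a cold-inducible RNA-binding protein. There were 3 libraries transfected with a negative control siRNA (NC) and 3 with an siRNA against CIRBP (SiCIRBP), all in the same medium with fetal bovine serum and without any chemotherapeutic drug named in the labels. The sample labels give T0519 for every library, whereas the study's text names another cardiomyocyte line, AC16, for this experiment, and which is right cannot be told from the counts used here. Each library held 25726259 to 29919566 estimated counts. Nothing in the labels says whether the libraries came from separate cultures, so p-values measure the spread between these libraries, which may be technical.

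NC_1 and SiCIRBP_2 were left out of the study's own comparison because they stood apart, and the test reported first here therefore used the other 4 libraries (NC_2, NC_3, SiCIRBP_1 and SiCIRBP_3), with the result over all 6 given beside it. Of 14 cardiomyocyte markers, 5 to 9 were at 0 in each library. MYH6, a cardiac myosin, had no count in any library and TNNT2, cardiac troponin T, had a single count in 1 library, while the cardiac transcription factor GATA4 ranged from 47.4 to 111 CPM, the count scaled to library size. The 14 summed to 74.6 to 142 CPM. Over the 4 libraries compared below, 0 of 4 tested rose and 2 fell, beside 9.62% and 9.76% of all genes. The 2 were NKX2-5, another cardiac factor (log2 fold change -1.24, edgeR adjusted p = 0.0160), and GATA4 (-0.41, edgeR adjusted p = 0.0211). NKX2-5 was nevertheless highest in SiCIRBP_2, at 9.49 CPM, and over all 6 libraries neither passed by edgeR or DESeq2. Fibroblast and mesenchymal markers together reached 7864 to 12035 CPM, epithelial markers 1012 to 1447 CPM, endothelial markers 11.8 to 24.2 CPM and immune markers 9.18 to 15.2 CPM. Over the 4 libraries COL1A1, VWF, CD68 and KRT8 of these lists passed higher (log2 fold changes 0.87, 2.56, 0.65 and 0.51) and TAGLN lower (-0.77). SiCIRBP_2 went the other way for COL1A1, at 0.556 times the highest NC library, and for TAGLN, at 4.04 times it. VWF, CD68 and KRT8 were above every NC library there. VWF was low, with 4-library means of 0.085 CPM in NC and 0.541 CPM in SiCIRBP. By edgeR over all 6 none passed, and DESeq2 called 1 mesenchymal, 1 immune and 1 epithelial marker higher, beside 4.92% of all genes. The part of these cell type markers in the results below was not tested. The contractile gene ACTN2 was above NKX2-5 in every library, with means over 3 libraries of 20.4 CPM in NC and 16.4 CPM in SiCIRBP. The other contractile genes listed reached at most 1.07 CPM, for TNNI3 in SiCIRBP_3. The label "cardiomyocyte" thus rests mainly on GATA4, ACTN2 and NKX2-5 in these data. In bulk RNA, fewer cells of a type and less RNA per cell cannot be told apart.

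The coding sequences show how alike the metallothioneins are, which bears on every count below. MT2A, MT1E, MT1X, MT1F and MT1M each have 186 coding bases and 61 codons, MT1G has 189 bases and 62 codons, and all 6 hold 20 cysteine codons, the residues that bind the metal. Base identity to MT2A was 92.5% for MT1E, 92.5% for MT1X, 91.4% for MT1F and 89.8% for MT1M. The sequences of the 2 metallothioneins with the highest CPM are shown, from GENCODE 29 on GRCh38, with cysteine codons in capitals.
MT2A: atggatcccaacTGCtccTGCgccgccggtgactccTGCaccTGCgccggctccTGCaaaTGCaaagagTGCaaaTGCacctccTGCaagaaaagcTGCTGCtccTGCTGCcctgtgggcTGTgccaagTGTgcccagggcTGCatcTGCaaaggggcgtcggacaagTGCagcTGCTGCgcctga
MT1E: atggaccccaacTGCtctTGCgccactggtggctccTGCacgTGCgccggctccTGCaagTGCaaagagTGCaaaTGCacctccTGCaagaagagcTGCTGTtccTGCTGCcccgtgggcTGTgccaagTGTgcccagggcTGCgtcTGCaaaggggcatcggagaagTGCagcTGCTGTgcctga
Counting reads over such copies is uncertain. Of all 31-base words in the reference transcript, the share also found in other genes was 12.2% for MT2A, 15.3% for MT1E, 8.33% for MT1F, 18.8% for MT1M, 31.5% for MT1G and 48.1% for MT1X, against 1.86% for MTF1 and 0% for SLC30A1. MT1X also overlaps AC026461.1 on the same strand over 321 exonic bases, and that gene was at 0 in every library.

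The 6 metallothioneins lie in 1 cluster on chromosome 16, starting within 74.2 kb of MT2A, at chr16:56608199-56609497 for MT2A (+), chr16:56625475-56627112 for MT1E (+), chr16:56632233-56633986 for MT1M (+), chr16:56657694-56660698 for MT1F (+), chr16:56666731-56668065 for MT1G (-) and chr16:56682424-56684196 for MT1X (+). MTF1 lies at chr1:37809567-37859620 (-) and SLC30A1 at chr1:211571568-211578742 (-). Promoters of 4 members were matched in RefSeq (GRCh38.p14), and the 250 bases before the start were searched on both strands for the MRE letters TGCACNC or TGCGCNC. MT2A held 7, MT1X 4, SLC30A1 1 and MTF1 0, whereas 24.8% of 35116 promoters held at least 1, 0.370% at least 4 and 0.0313% at least 7. The promoters with an MRE are shown because they carry the sequence by which MTF1 is known to act, with the MREs in capitals.
MT2A, chr16:56608334-56608583, +: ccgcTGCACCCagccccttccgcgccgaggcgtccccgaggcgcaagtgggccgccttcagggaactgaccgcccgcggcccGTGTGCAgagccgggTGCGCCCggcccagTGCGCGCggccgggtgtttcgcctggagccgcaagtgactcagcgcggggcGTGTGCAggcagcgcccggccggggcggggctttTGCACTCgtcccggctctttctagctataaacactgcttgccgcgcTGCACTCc
MT1X, chr16:56682220-56682469, +: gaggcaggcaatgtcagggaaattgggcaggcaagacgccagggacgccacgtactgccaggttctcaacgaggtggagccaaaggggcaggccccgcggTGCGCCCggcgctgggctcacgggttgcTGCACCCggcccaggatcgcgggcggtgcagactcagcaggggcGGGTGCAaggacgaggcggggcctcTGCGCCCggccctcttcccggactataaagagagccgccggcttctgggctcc
SLC30A1, chr1:211579162-211579411, -: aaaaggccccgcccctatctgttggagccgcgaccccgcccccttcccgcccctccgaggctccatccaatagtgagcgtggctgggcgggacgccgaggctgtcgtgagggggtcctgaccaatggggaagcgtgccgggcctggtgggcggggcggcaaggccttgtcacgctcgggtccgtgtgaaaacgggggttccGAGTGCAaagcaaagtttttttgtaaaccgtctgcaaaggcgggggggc
One MRE of MT1X shares bases with a GC box (GGGCGG), and no other MRE printed overlaps the GC box, the AP-1 letters TGANTCA or the interferon factor core GAAANNGAA. The interferon core was in none of the 4 promoters and in 6.88% of all promoters. These matches describe letters in the window and say nothing of binding.

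CIRBP itself, the siRNA target, measured 86.4, 85.8 and 91.0 CPM in NC_1 to NC_3 and 54.8, 24.3 and 46.3 CPM in SiCIRBP_1 to SiCIRBP_3, so the groups did not overlap. Over the 4 libraries its log2 fold change was -0.81 (SE 0.11, edgeR adjusted p = 0.00828), and over all 6 it was -1.07 (SE 0.26, edgeR adjusted p = 0.103, DESeq2 adjusted p = 0.00405). CIRBP was lowest in SiCIRBP_2.

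None of the members passed the test between SiCIRBP and NC over the 4 libraries. Of the 8, 7 had enough counts to be tested and MT1G did not. By edgeR, 0 of 7 were higher and 0 lower at an adjusted p under 0.05, against 9.62% of 15421 genes that were higher and 9.76% that were lower. At an unadjusted p under 0.05 there were 2 of 7, MT1E and MTF1, beside 36.6% of all genes tested. DESeq2 on the same libraries gave 0 members after adjustment. The median log2 fold change was 0.37 over the 7 members and -0.002 over all genes, with 4 estimates above 0 and 3 below.

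Leaving out a SiCIRBP library from the 4 left a fit whose spread came from the 2 NC libraries alone. More of all genes were then called in each direction. Without SiCIRBP_1, 3 members passed higher and 0 lower, where 21.2% of 15916 genes passed higher and 23.1% lower. Without SiCIRBP_3, 2 passed higher and 2 lower, where 19.1% of 15961 genes passed higher and 21.1% lower. Without NC_2 or NC_3, 0 members passed. The members called differed between these fits, and their values are given gene by gene.

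Over all 6 libraries the 7 tested members again gave 0 calls by edgeR, where 0% of 15217 genes passed. At an unadjusted p under 0.05 there were 3 (MT1E, MT1F and MTF1), beside 23.7% of all genes tested. DESeq2 over the 6 called 2 members higher, MT1E (log2 fold change 1.11, adjusted p = 0.0188) and MTF1 (0.40, adjusted p = 0.0336), and 0 lower, beside 4.92% of genes higher and 5.18% lower. The members' median log2 fold change by edgeR moved to 0.90, while that of all genes was 0.008. The fit over 6 adds NC_1 and SiCIRBP_2, and SiCIRBP_2 was the highest library for 4 of the 7 (MT2A, MT1E, MT1X and MT1M).

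**Figure D1:**
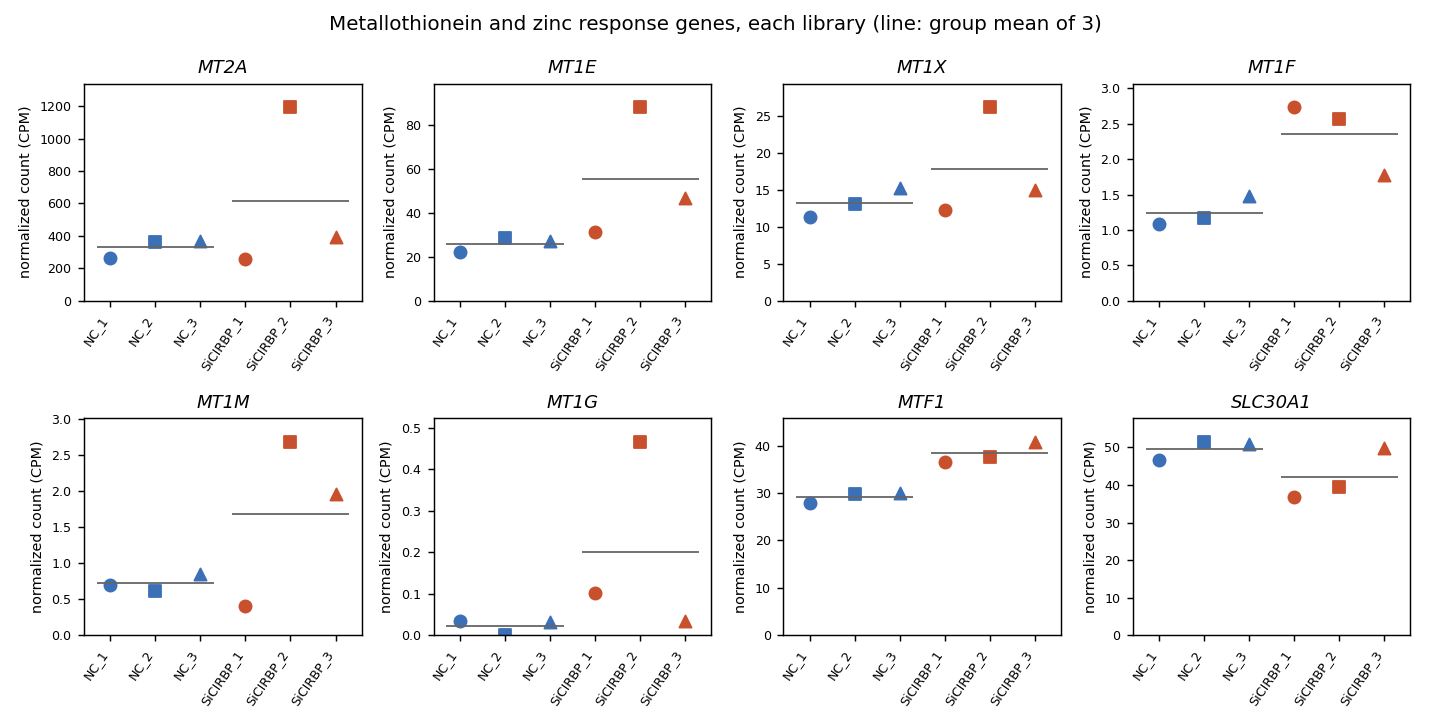
Normalized count (CPM, y axis, linear from 0) of each member in each of the 6 libraries, NC in blue and SiCIRBP in orange, with the mean of 3 libraries as a line. SiCIRBP_2 is the highest library for MT2A (1196 CPM), MT1E, MT1X, MT1M and MT1G, while MTF1 is above all NC libraries in each SiCIRBP library.

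MT2A is the main metallothionein of most human cells. Its level per length, in TPM, was 2378, 3323 and 3282 in NC_1 to NC_3, which placed it at ranks 68, 35 and 36 of all genes. In SiCIRBP_1 to SiCIRBP_3 it was 2092, 9071 and 3409 TPM, ranks 82, 2 and 39. SiCIRBP_2 therefore stood alone, and SiCIRBP_1 was below and SiCIRBP_3 just above the NC range.

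In normalized counts MT2A was 261.6, 359 and 366 CPM in NC and 255, 1196 and 395 CPM in SiCIRBP. The log2 fold change over 4 libraries was -0.16 (SE 0.19, edgeR adjusted p = 0.583), and over 6 it was 0.90 (SE 0.50, edgeR adjusted p = 0.303). Without SiCIRBP_3 it was -0.51 and passed, and without SiCIRBP_1 it was 0.12 and did not (edgeR adjusted p = 0.180). The sign of the MT2A estimate thus changed with the libraries used. SiCIRBP_2 was 3.27 times the highest NC library, and 4.13% of 15217 genes were at least 2-fold above it there.

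MT1E, the next of the family by CPM, was 22.0, 28.4 and 27.0 CPM in NC and 31.2, 88.3 and 46.9 CPM in SiCIRBP. In CPM all 3 SiCIRBP libraries were above all 3 NC, as were 16.2% of all genes tested over 6 libraries. In TPM SiCIRBP_1, at 92.0, was below NC_2, at 95.65, so the groups overlapped per length. The 4-library log2 fold change was 0.50 (SE 0.19, edgeR adjusted p = 0.109), and the 6-library value was 1.10 (SE 0.34, edgeR adjusted p = 0.128). Without SiCIRBP_1 it was 0.76 and passed, and without SiCIRBP_3 it was 0.17 and did not (edgeR adjusted p = 0.156), so its size rests on SiCIRBP_3. MT1E stood at 7.38% to 8.43% of MT2A's CPM in NC, at 12.2% and 11.9% in SiCIRBP_1 and SiCIRBP_3, and at 7.39% in SiCIRBP_2, so the ratio was above the NC range in SiCIRBP_1 and SiCIRBP_3 and near its lower end in SiCIRBP_2.

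MT1X, which binds zinc as the others do, was 11.2, 13.0 and 15.2 CPM in NC and 12.3, 26.2 and 15.0 CPM in SiCIRBP. Only SiCIRBP_2 lay outside the NC range. Its log2 fold change was -0.05 (SE 0.16, edgeR adjusted p = 0.837) over 4 libraries and 0.44 (SE 0.28, edgeR adjusted p = 0.367) over 6, so its sign also depended on the libraries.

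MT1F and MT1M were low. MT1F was 1.09, 1.16 and 1.48 CPM in NC and 2.74, 2.57 and 1.78 CPM in SiCIRBP, with all 3 SiCIRBP libraries above NC. Its log2 fold change was 0.77 (SE 0.34, edgeR adjusted p = 0.150) over 4 libraries and 0.92 (SE 0.29, edgeR adjusted p = 0.127) over 6. Without SiCIRBP_3 it was 1.04 and passed, and without SiCIRBP_1 it was 0.42 and did not (edgeR adjusted p = 0.444). MT1F thus separated the groups in this direction, as did 16.2% of all genes tested over 6 libraries. SiCIRBP_2 was not its highest library.

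MT1M was 0.701, 0.621 and 0.853 CPM in NC and 0.411, 2.68 and 1.96 CPM in SiCIRBP, with 16 to 26 counts in each NC library. SiCIRBP_1 was below NC and the other two were above. The log2 fold change was 0.67 (SE 0.69, edgeR adjusted p = 0.525) over 4 libraries and 1.20 (SE 0.60, edgeR adjusted p = 0.260) over 6. It was -0.85 without SiCIRBP_3, which did not pass, and 1.39 without SiCIRBP_1, which did. MT1G had 1, 0 and 1 counts in NC and 3, 12 and 1 in SiCIRBP. Against the floor of 3 counts in a library, a difference in MT1G was not detectable at this depth outside SiCIRBP_2.

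MTF1, the metal-sensing transcription factor, came nearest to the threshold. It was 27.9, 29.8 and 29.9 CPM in NC and 36.5, 37.6 and 40.8 CPM in SiCIRBP. The groups did not overlap, as in 16.2% of all genes for this direction. The log2 fold change was 0.37 (SE 0.11, edgeR adjusted p = 0.0536) over 4 libraries and 0.39 (SE 0.12, edgeR adjusted p = 0.122) over 6. It passed without SiCIRBP_1 (0.45) and without SiCIRBP_3 (0.29), and did not without NC_2 (0.37, edgeR adjusted p = 0.346) or without NC_3 (0.37, edgeR adjusted p = 0.386). In TPM the groups were 4.68, 4.99 and 5.20 against 5.89, 5.40 and 6.59, so they also stayed apart per length. MTF1 was highest in SiCIRBP_3.

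SLC30A1, the zinc exporter, was 46.5, 51.5 and 50.9 CPM in NC and 36.7, 39.4 and 49.9 CPM in SiCIRBP. SiCIRBP_1 and SiCIRBP_2 were below all NC libraries and SiCIRBP_3 was inside their range. Its log2 fold change was -0.24 (SE 0.15, edgeR adjusted p = 0.290) over 4 libraries, and -0.24 (SE 0.15, edgeR adjusted p = 0.337) over 6. Without SiCIRBP_3 it was -0.49 and passed, and without SiCIRBP_1 it was -0.04 and did not (edgeR adjusted p = 0.746). In SiCIRBP_2, where MT2A peaked, SLC30A1 was 0.765 times the highest NC library, so the exporter and MT2A lay on opposite sides of the NC range there.

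**Figure D2:**
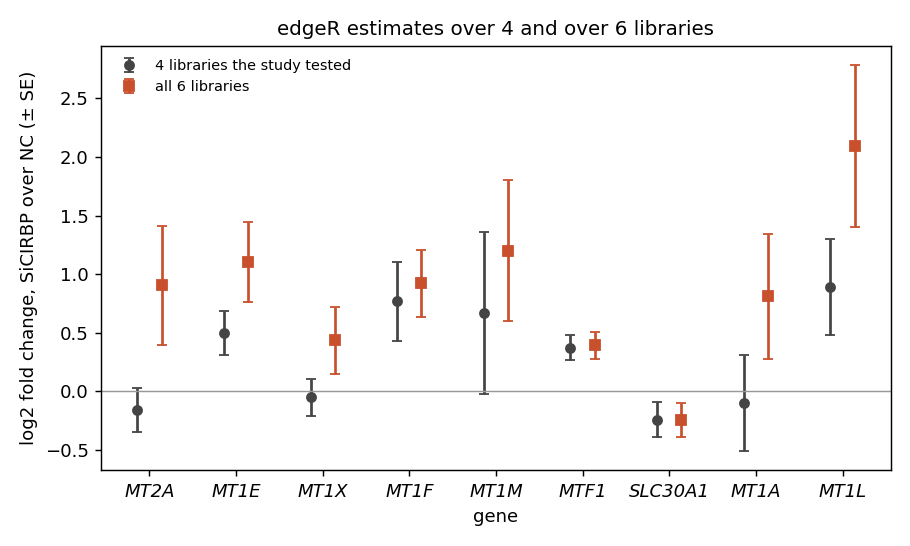
Log2 fold change of SiCIRBP over NC with its SE (y axis) for the 7 tested members and for MT1A and MT1L (x axis), from edgeR over the 4 libraries (grey circles) and over all 6 (orange squares). MT2A moves from -0.16 to 0.90 and MT1L from 0.89 to 2.09, while MTF1 and SLC30A1 stay in place.

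The rest of the family was mostly silent. MT1A was 0.526, 0.660 and 0.689 CPM in NC and 0.514, 2.06 and 0.748 CPM in SiCIRBP, and its log2 fold change over 4 libraries was -0.10 (SE 0.41, edgeR adjusted p = 0.882), turning to 0.81 (SE 0.54, edgeR adjusted p = 0.373) over 6. The pseudogene MT1L was 3.68, 3.49 and 3.25 CPM in NC and 3.60, 32.1 and 8.91 CPM in SiCIRBP. Over 4 libraries its log2 fold change was 0.89 (SE 0.41, edgeR adjusted p = 0.167), and over 6 it was 2.09 (SE 0.69, edgeR adjusted p = 0.141). MT1L lies between MT2A and MT1E and shares 16.3% of its words with other genes. MT1JP had 2 to 9.01 estimated counts in each library, MT3, the brain form, had at most 4, and MT1B had 1 count in SiCIRBP_2. MT1H, MT4 and the remaining metallothionein pseudogenes with a row had no count in any library.

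Summed over the family, metallothioneins took 301, 407 and 414 CPM in NC and 306, 1351 and 471 CPM in SiCIRBP. MT2A made up 91.5% to 92.7% of the family's TPM in NC, and 89.4% to 92.7% in SiCIRBP, with the highest share in SiCIRBP_2. The higher sum in SiCIRBP_2 was thus mostly MT2A.

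Of 5 genes tested that flank the cluster, 0 passed higher and 2 lower by edgeR over the 4 libraries, beside 9.62% and 9.76% of all genes. BBS2, a subunit of the BBSome, was at -0.80 (SE 0.12, edgeR adjusted p = 0.0113). HERPUD1, an endoplasmic reticulum stress gene, was at -0.60 (SE 0.14, edgeR adjusted p = 0.0337). BBS2 was 27.2, 33.2 and 35.8 CPM in NC and 21.3, 15.2 and 18.5 CPM in SiCIRBP. Its groups did not overlap, as in 16.6% of all genes for this direction. HERPUD1 was 56.5, 78.4 and 103 CPM in NC and 63.5, 92.3 and 56.7 CPM in SiCIRBP, so NC_1 was the lowest library and the groups overlapped. Over all 6 libraries edgeR called 0 of the 5, DESeq2 called BBS2 lower, and HERPUD1 was at -0.16 (SE 0.25, edgeR adjusted p = 0.710). SiCIRBP_2 was also the highest library for OGFOD1, at 101 CPM against 57.1 to 71.3 CPM elsewhere, and for NUDT21, at 160 CPM against 123 to 144 CPM, genes named here after their values were seen.

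Zinc reaches the cytosol through the SLC39 (ZIP) importers and leaves it through the SLC30 (ZnT) exporters. Apart from SLC30A1, 17 of 23 listed transporters were tested, and over the 4 libraries 2 rose, 2 fell and 13 did not pass. Of all genes, 9.62% were higher and 9.76% lower in that test. All 4 were importers (of 11 tested), and 0 of 6 exporters passed. A difference between importers and exporters was not tested. The exporters of highest level, SLC30A5 and SLC30A9, had log2 fold changes of -0.13 and 0.13.

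SLC39A10, an importer of the plasma membrane, was 21.9, 25.6 and 24.3 CPM in NC and 9.76, 12.2 and 15.7 CPM in SiCIRBP, and it fell by 0.97 on the log2 scale (SE 0.22, edgeR adjusted p = 0.0280). SLC39A14, which also carries iron and manganese, was 395, 472 and 491 CPM in NC and 336, 256 and 358 CPM in SiCIRBP, and it fell by 0.47 (SE 0.078, edgeR adjusted p = 0.0135). In both the groups did not overlap, as in 16.6% of all genes for this direction. SLC39A7, which releases zinc from the endoplasmic reticulum, was 184, 168 and 172 CPM in NC and 226, 261 and 252 CPM in SiCIRBP, and it rose by 0.49 (SE 0.086, edgeR adjusted p = 0.0153). SLC39A3, another plasma membrane importer, was 47.0, 45.9 and 46.7 CPM in NC and 60.0, 53.1 and 59.2 CPM in SiCIRBP, and it rose by 0.37 (SE 0.088, edgeR adjusted p = 0.0338). Of the 4, SLC39A7, SLC39A10 and SLC39A14 were also called by DESeq2 over all 6 libraries, and by edgeR over the 6 none was.

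**Figure D3:**
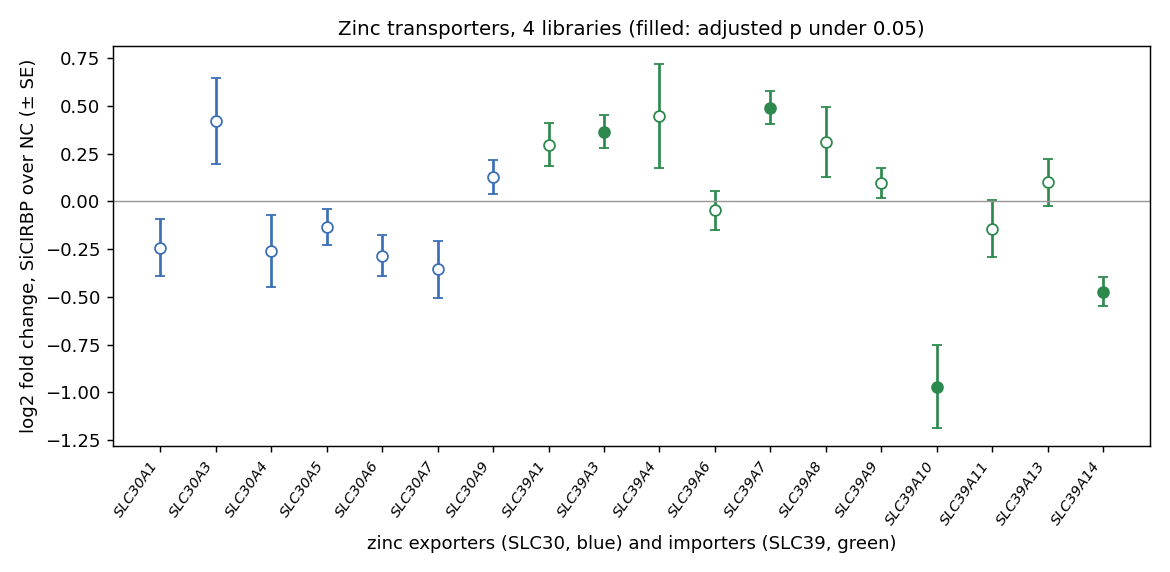
Log2 fold change of SiCIRBP over NC with its SE (y axis) for the tested zinc exporters (blue) and importers (green), by edgeR over the 4 libraries, filled where the adjusted p was under 0.05. The filled points are SLC39A3 and SLC39A7 above 0 and SLC39A10 and SLC39A14 below it.

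Metallothioneins also bind copper, and genes of copper handling gave 3 higher and 0 lower of 11 tested over the 4 libraries, beside the 9.62% and 9.76% of all genes. The list also held MTF2, a chromatin protein, which did not pass. The 3 were the copper importer SLC31A1 (0.54, SE 0.098, edgeR adjusted p = 0.0164), superoxide dismutase SOD1 (0.44, SE 0.076, edgeR adjusted p = 0.0147) and the chaperone ATOX1 (0.39, SE 0.0998, edgeR adjusted p = 0.0401). SOD1 was 194, 169 and 162 CPM in NC and 227, 231 and 223 CPM in SiCIRBP. SLC31A1 was 80.4, 65.8 and 67.6 CPM in NC and 90.3, 65.7 and 104 CPM in SiCIRBP. SiCIRBP_2 was its lowest library, so the groups overlapped for SLC31A1. Over all 6 libraries edgeR called 0 of the 11. DESeq2 called SOD1 higher and ATP7B, a copper-exporting pump, lower, beside 4.92% and 5.18% of all genes.

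Of 11 heat shock and metal stress genes, 2 rose and 2 fell over the 4 libraries, beside 9.62% and 9.76% of all genes. Over all 6 edgeR called 0, while DESeq2 called 2 higher (HMOX1 and SRXN1) and 0 lower, beside 4.92% and 5.18%. HMOX1, heme oxygenase, was 124, 136 and 125 CPM in NC and 214, 195 and 273 CPM in SiCIRBP, a log2 fold change of 0.90 (SE 0.13, edgeR adjusted p = 0.00929). SRXN1, sulfiredoxin, had a log2 fold change of 0.51 (SE 0.11, edgeR adjusted p = 0.0249). SLC7A11, the cystine importer, was 11.3, 16.4 and 17.4 CPM in NC and 12.2, 7.82 and 10.2 CPM in SiCIRBP, and the groups overlapped. It fell by 0.60 (SE 0.14, edgeR adjusted p = 0.0335) over the 4 libraries and did not pass over 6 (-0.58, edgeR adjusted p = 0.184).

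Glucocorticoids and interferons are known inducers of metallothioneins, so their target genes were read beside the family. Of 8 glucocorticoid response genes tested, 0 rose and 3 fell over the 4 libraries, beside 9.62% and 9.76% of all genes. KLF9 fell by 1.83 (SE 0.17, edgeR adjusted p = 0.00465), CEBPD by 1.46 (SE 0.29, edgeR adjusted p = 0.0210) and DUSP1 by 0.70 (SE 0.12, edgeR adjusted p = 0.0156). Over all 6 libraries edgeR called none of the 8 and DESeq2 called the same 3 genes lower, beside 5.18% of all genes. The list did not move as one in SiCIRBP_2. Its summed level was 745 CPM, below the 934 to 1145 CPM of NC, whereas FKBP5, named after its values were seen, was at 40.3 CPM there against 20.9 to 23.9 CPM in NC.

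Interferon response genes were highest in the same library as MT2A. Their summed level was 649, 641 and 618 CPM in NC and 343, 6335 and 1187 CPM in SiCIRBP, and the median gene differed from the NC mean by -1.07, 3.82 and 0.975 on the log2 scale in SiCIRBP_1 to SiCIRBP_3. Of 19 tested, 0 passed over the 4 libraries by edgeR, beside 9.62% of all genes higher and 9.76% lower. Over all 6 edgeR called 0 and DESeq2 1 (IFIT1, higher), beside 4.92% of all genes higher. ISG15, a ubiquitin-like protein induced by interferon, was 85.6, 74.1 and 73.9 CPM in NC and 52.8, 1184 and 164 CPM in SiCIRBP. IFI27, another interferon-induced gene, was 38.2, 34.6 and 35.4 CPM in NC and 10.4, 447 and 84.8 CPM in SiCIRBP. SiCIRBP_2 was thus the highest library for MT2A and for both of these genes, and SiCIRBP_1 the lowest for MT2A and for ISG15. Whether the interferon state of that library has a part in its metallothionein level was not tested.

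**Figure D4:**
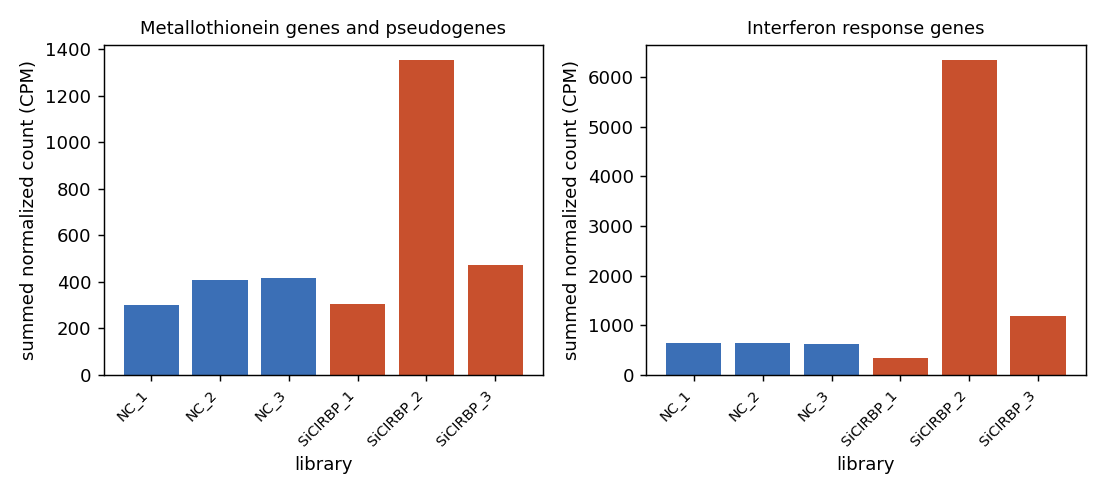
Summed normalized count (CPM, y axes from 0) of the metallothionein genes and pseudogenes (left) and of 20 interferon response genes (right) in each library, NC in blue and SiCIRBP in orange. Both bars are tallest in SiCIRBP_2, at 1351 and 6335 CPM.

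The 5 genes, metallothioneins aside, whose levels across the 6 libraries were most like that of MT2A were C15orf48, SP100, RARRES3, IRF9 and PARP10, with a mean absolute difference of 0.112, 0.116, 0.127, 0.142 and 0.142 in centred log2(CPM + 1). SP100, for instance, was 38.8, 44.9 and 44.8 CPM in NC and 26.1, 135 and 47.9 CPM in SiCIRBP. IRF9 was 50.7, 53.9 and 58.5 CPM in NC and 30.1, 177 and 59.5 CPM in SiCIRBP. Within the family MT1X ranked 118 of 15216 genes, MT1E 134, MT1A 136, MT1M 268, MT1L 678 and MT1F 2505. The ranks depend on the added 1, which shrinks differences of genes of low CPM, such as MT1A, MT1M and C15orf48. With 0.1 added, SiCIRBP_2 differed from the NC mean by 1.86 for MT2A on the log2 scale. It differed by 0.99 for MT1X, 1.77 for MT1E, 1.58 for MT1A, 1.75 for MT1M, 3.17 for MT1L and 0.99 for MT1F. The ranking was not computed with another added value. The points share their libraries, and the likeness was not computed without SiCIRBP_2.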

How the data were processed

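Per the submitters' notes, reads were trimmed with fastp, aligned to hg38 with HISAT and counted with RSEM (versions and strand setting not given in the sources used here). The authors deposited estimated counts and TPM for 58884 genes in 6 libraries, and in further columns their own fold changes and p-values, which were not used. Estimated counts were rounded and tested with edgeR 4.0.16 (quasi-likelihood, TMM, filterByExpr, R 4.3.3), with Benjamini-Hochberg adjustment over all genes, on the 4 libraries the study compared. An adjusted p under 0.05 passed. CPM per library used TMM over all 6 libraries. Alternatives were all 6 libraries, a replicate block, leave-one-out, DESeq2 1.42.0, RLE scaling, other filters, and limma 3.58.1 on log2(TPM + 1) or log2(TPM + 0.1). Named genes were the 8 members, CIRBP, every metallothionein with a count, and per list the 3 passing genes of largest change, or the 2 of highest TPM where none passed, and exceptions are marked or are genes called by DESeq2 over 6 libraries. One gene of the flanking list is not reported here. The members and lists were chosen with earlier results of these data known. The edgeR fit was tested on simulated data with the same spread for every gene and no outlying library. That test does not cover the fit over all 6 libraries, where SiCIRBP_2 stood apart. Of the identifiers, 58611 were found in GENCODE 29. The SEs come from the fits and include the spread between libraries, whereas floors cover counting error only.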

Additional observations from a re-analysis of the deposited data

Results flagged for a closer look

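SiCIRBP_2 was outside the study's own comparison and held metallothionein levels above every NC library: MT2A at 1196 CPM, MT1E at 88.3 CPM, MT1M at 2.68 CPM, MT1A at 2.06 CPM, the pseudogene MT1L at 32.1 CPM and MT1G at 0.467 CPM. Each had at least 10 counts there and was at least 2-fold above the highest NC library, as were 6.11% of the 15062 genes with at least 10 counts there. MT1X and MT1F also met the count rule and were above every NC library, but missed the 2-fold rule. They were at 1.72 and 1.74 times the highest NC library. MT1G met the count rule only through its 12 counts in SiCIRBP_2 and was too low to be tested. The interferon response list summed to 6335 CPM in the same library, and CIRBP was at its lowest, 24.3 CPM. The part of either in the metallothionein level was not tested.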

How the results depend on the processing

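Genes higher (1484) and lower (1505) over the 4 libraries numbered 0 and 0 over all 6 by edgeR, 1 and 0 with the replicate block over 6, 748 and 788 by DESeq2 over 6, 433 and 775 by limma on log2(TPM + 1), and 440 and 793 on log2(TPM + 0.1). With no low-count filter 2492 were lower. Leaving out 1 NC library gave 25 to 69 higher and 39 to 99 lower, leaving out 1 SiCIRBP library 3047 to 3379 and 3371 to 3669, and over 6 libraries 5 and 13 without NC_1 and 554 and 564 without SiCIRBP_2. Members called higher (0) ranged from 0 to 3 on leaving out 1 library, were 2 by DESeq2 over 6 and 1 with no filter (MT1E), and members called lower (0) ranged from 0 to 2. CIRBP was -1.07 over 6 libraries (adjusted p = 0.103), -1.14 with the block (adjusted p = 0.131), -1.08 over 6 without NC_1, -0.85 and -0.77 without NC_2 or NC_3 (no longer passing in these 5 fits), and -0.94 to -0.70 without a SiCIRBP library. MT2A changed sign to 0.90 over 6, 0.92 by DESeq2 over 6, 0.59 with the block, 0.76 over 6 without NC_1 and 0.12 without SiCIRBP_1, against -0.51 without SiCIRBP_3. MT1X changed sign to 0.44 over 6 and by DESeq2 over 6, 0.37 with the block, 0.33 over 6 without NC_1, 0.049 over 6 without SiCIRBP_2, 0.06 without NC_3 and 0.076 without SiCIRBP_1, against -0.21 without SiCIRBP_3. MT1M changed sign to -0.85 without SiCIRBP_3, against 1.39 without SiCIRBP_1. The causes were not tested, beyond the fewer libraries of each fit, and a fit that leaves out a SiCIRBP library takes the spread from the 2 NC libraries and assumes that the lone SiCIRBP library varies alike. Libraries with the same number deviated together with correlations of -0.12, 0.01 and -0.03 over genes. The deviations are from means of 3 libraries, and SiCIRBP_2 lies far from the other SiCIRBP libraries. Whether libraries are paired by number therefore cannot be told from them. The labels give only a replicate number, and the block fit is given for completeness. Depth limits MT1G, MT1M and MT1F most.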
